A study of Mus musculus with 4 samples.

Results

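Adult-only FOXA2 regions that lie on elongating RNA polymerase II were described across the mouse uterus. They are the intervals of the adult FOXA2 list that overlap no FOXA2 interval of postnatal day 12 (PD12) and overlap a POL2 interval of the adult by at least 1 bp. They were chosen by the positions in these 3 lists, and are called in-POL2 intervals here. They numbered 1851 of the 10373 adult FOXA2 intervals (17.8%). Of all adult FOXA2 intervals, 94.4% had no PD12 counterpart and 19.4% overlapped an adult POL2 interval, and nothing is read from these shares, since they belong to the choice.

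The data are ChIP-seq peak lists, in which DNA bound by a protein is precipitated with an antibody and sequenced. Whole uterus of female mice was used at PD12 and in the adult at days 2.5 and 3.5 of pseudopregnancy, both days standing on the label of a single library. The antibodies were to FOXA2 and to RNA polymerase II with phosphorylated serine 2 in its repeat tail (POL2). The sources used here give no strain, genotype or number of animals pooled, and they name no treatment. Each combination of stage and antibody had 1 library, so no value has a replicate check and no test between stages was possible. The 95% intervals printed below are exact (Clopper-Pearson for shares, Poisson for counts per Mb). They cover counting error only, since regions of a list are not replicates.

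FOXA2 is a forkhead transcription factor, a class of protein that can bind its sites in closed chromatin, and in the uterus it is known as the factor of the glandular epithelium. Glands form after birth, and in the adult they secrete what the embryo needs to implant. Phosphorylation of serine 2 marks polymerase that has left the promoter and is moving along a gene, so wide POL2 intervals, called domains here, are usually found over gene bodies. The uterus also holds stroma, smooth muscle, vessels and luminal epithelium, and both proteins may have been bound in different cells of the same tissue. More cells with FOXA2 and more binding in each cell cannot be told apart in whole tissue. The lists hold only positions, with no height or read count. The depth is therefore unknown, and absence from the PD12 list does not show absence of binding. No genome or annotation of the build of the files was used here, so the gene, exon or intron at a region and its bases are not stated.

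Every in-POL2 interval lay in 1 adult POL2 domain, and 1707 of the 14818 adult domains (11.5%, 11.0 to 12.0) held them. A single interval was the rule, in 1580 domains. A further 111 domains held 2, 15 held 3 and 1 held 4. The domain with 4 lay on chromosome 5 (65192800 to 65226999, 34.2 kb), and 33.8 kb of it was also covered by POL2 at PD12. Its FOXA2 intervals were at 65193830 to 65195077, 65197056 to 65197951, 65200748 to 65201583 and 65202547 to 65203883. All 4 stood toward the same end of the domain, the last pair only 0.963 kb apart, and all lay in PD12 POL2. The nearest FOXA2 interval of PD12 was at least 489 kb away from each.

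Among the 4 widest of the 15 domains with 3 in-POL2 intervals, PD12 POL2 ranged from none to nearly the whole width. On chromosome 10 (39319800 to 39371999, 52.2 kb) PD12 POL2 covered 92.7% of the domain, and the 3 FOXA2 intervals, of 1766, 906 and 1845 bp, all lay in it. The second domain on chromosome 10 (87320400 to 87403999, 83.6 kb) had 11.5% of its bases covered at PD12. Of its 3 FOXA2 intervals, that at 87374023 to 87374648 lay in a PD12 domain. The other two were 29029 and 7106 bp from a PD12 domain. The domains on chromosome 9 (48523800 to 48597799, 74.0 kb) and chromosome 5 (107687600 to 107718799, 31.2 kb) had no base covered at PD12 and held 3 FOXA2 intervals each. On chromosome 9 the nearest PD12 POL2 domain was at least 224959 bp from these intervals, and on chromosome 5 at least 128836 bp. None of these 5 domains held a FOXA2 interval of PD12.

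**Figure D1:**
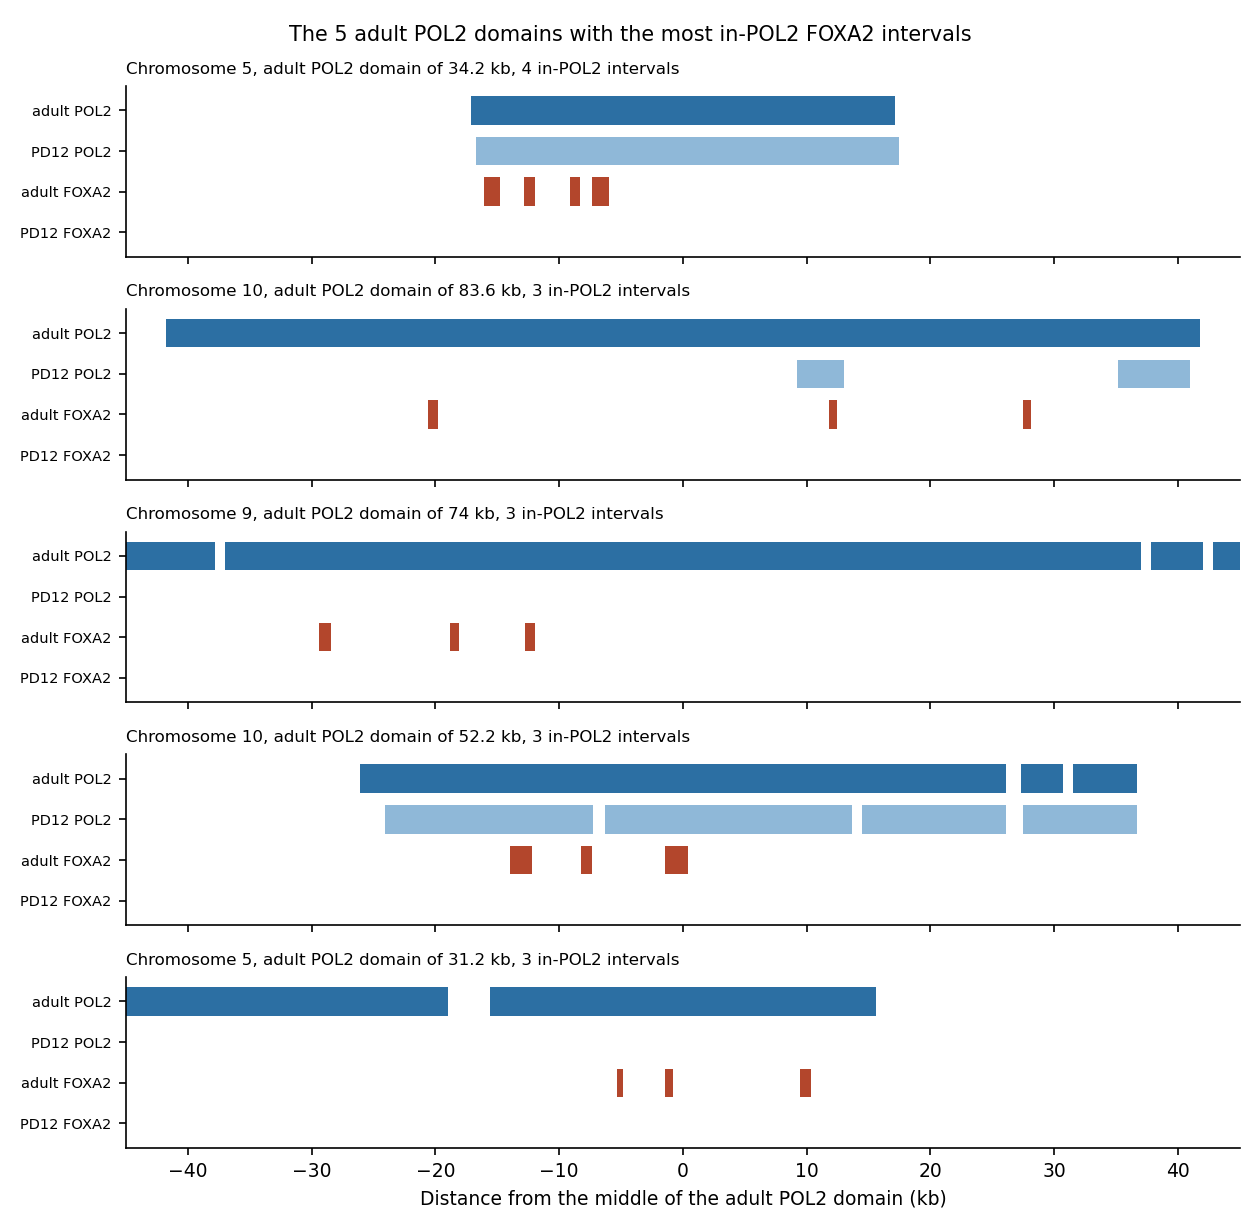
Intervals of the 4 lists around the 5 adult POL2 domains with the most in-POL2 FOXA2 intervals (the 4 domains with 3 intervals are the widest of 15 such), with distance from the middle of the domain in kb on the x axis and 1 row of bars per list. PD12 POL2 covers 98.8% and 92.7% of the first and the fourth domain, 11.5% of the second and none of the third and the fifth.

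Of the 5 widest adult domains with in-POL2 intervals and no PD12 POL2, all but that on chromosome 9 carried 1 such interval each. On chromosome 5 the adult domain next to that of 31.2 kb (107610400 to 107684199, 73.8 kb) held an interval of 877 bp at 107631558 to 107632434. On chromosome 15 a domain of 57.4 kb (66938400 to 66995799) held 66965447 to 66966300. On chromosome 13 a domain of 48.6 kb (24784200 to 24832799) held an interval of 452 bp at 24807689 to 24808140, and on chromosome 19 a domain of 45.6 kb (24061000 to 24106599) held 24091168 to 24092251. Each of these 4 stood alone, with its nearest adult FOXA2 interval between 40.6 and 75.7 kb away.

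The PD12 POL2 list played no part in the choice. It shows whether polymerase was already listed at these regions at the earlier stage. About as many in-POL2 intervals lay in PD12 POL2 as did not. PD12 POL2 overlapped 953 of the 1851 (51.5%, 49.2 to 53.8), against 11.4% of all adult FOXA2 intervals and 120 of the 7936 (1.51%, 1.26 to 1.81) adult-only intervals outside adult POL2. This contrast goes with the choice of adult POL2, because the POL2 lists of the stages overlap. A comparison at equal adult POL2 is with FOXA2 intervals in adult POL2 that were shared with PD12. Of these 161, 97 (60.2%, 52.2 to 67.9) lay in PD12 POL2. The limits of the shares overlapped, and the difference was not tested.

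The in-POL2 intervals fell into 3 classes by PD12 POL2. Besides the 953 with PD12 POL2 at the interval itself, 161 (8.70%, 7.45 to 10.1) lay in an adult domain that PD12 POL2 touched only elsewhere. The remaining 737 (39.8%, 37.6 to 42.1) lay in adult domains with no PD12 POL2. Taken over the intervals, the median width of the adult domain was 8600, 10600 and 3800 bp in the 3 classes. The median width of the FOXA2 intervals was 894 bp in the first class, 744 bp in the second and 867 bp in the third. One interval on chromosome 11 (98766176 to 98766853, counted in the first class) overlapped a PD12 domain with the end that reached out of its adult domain. In all, 1113 in-POL2 intervals (60.1%, 57.9 to 62.4) lay in adult domains touched at PD12. For FOXA2 intervals in adult POL2 shared with PD12 it was 109 (67.7%, 59.9 to 74.8). The limits overlapped, and the difference was not tested. Counted per domain, 54.4% (53.6 to 55.2) of all adult domains were touched at PD12.

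Of the 898 in-POL2 intervals without PD12 POL2, 203 (22.6%, 19.9 to 25.5) had a PD12 domain within 5 kb and 649 (72.3%, 69.2 to 75.2) within 50 kb. The median distance was 19.5 kb. With a PD12 domain within 5 kb counted as presence, the share of in-POL2 intervals at PD12 POL2 became 62.5% (60.2 to 64.7). These distances were not taken for other FOXA2 intervals or for adult POL2 bases. They are therefore not read as particular to in-POL2 intervals, since the POL2 lists of the stages overlap.

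Pooled over all adult domains, in-POL2 centres had similar density in PD12-covered and uncovered bases. PD12 POL2 covered 50.7 Mb (53.2%) of the adult POL2 bases. Of the 1812 in-POL2 intervals with their centre inside the domain, 927 centres (51.2%, 48.8 to 53.5) lay in these bases, or 18.3 per Mb (17.1 to 19.5). The bases that PD12 POL2 did not cover held 19.9 centres per Mb (18.6 to 21.2), and the limits overlapped. These uncovered bases pool adult domains with no PD12 POL2 and the uncovered parts of domains touched at PD12. The former held 25.2 centres per Mb (23.4 to 27.1). FOXA2 intervals shared with PD12 had 1.89 centres per Mb (1.53 to 2.31) in covered and 1.44 (1.11 to 1.83) in uncovered bases.

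In adult domains that PD12 POL2 touched, the picture was different. There 927 of the 1093 centres (84.8%, 82.5 to 86.9) lay in the part covered at PD12, while on average 77.0% of the bases of their domains were covered. Of these 1093 centres, 10.3% (8.60 to 12.3) were within 500 bp of a domain end, against 14.9% of bases, and 55.5% (52.5 to 58.5) within 2 kb, against 50.4%. The part of this placement in the difference was not tested. Of the 161 shared intervals in adult POL2, 109 lay in touched domains, and 96 shared centres lay in bases covered at PD12. The covered share of their domains was not taken, so the value of in-POL2 centres is not read as particular to them.

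In-POL2 intervals were wider than adult-only intervals outside adult POL2, but shared intervals in adult POL2 were wider still. A wide interval meets a domain more easily, so the choice itself can add to this. The median width of in-POL2 intervals was 866 bp (interquartile range 695 to 1137). It was 652 bp (540 to 765) for adult-only intervals outside adult POL2 and 1045 bp (852 to 1360) for shared intervals in adult POL2. With the whole interval required inside the domain, the median of in-POL2 intervals was 868 bp. The part of the choice in their width was not tested. In-POL2 intervals made up 6.17% (4.78 to 7.81) of the narrowest 10% of the adult list. They made up 34.8% (31.9 to 37.8) of the 9th bin of 10 and 55.5% (52.4 to 58.5) of the widest 10%, which starts at 1050 bp. The steepest steps were in the last 2 bins.

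PD12 POL2 at in-POL2 intervals was more frequent in the widest bin and showed no order over the others. In the first 9 bins of width the share of in-POL2 intervals in PD12 POL2 lay between 41.0% (32.2 to 50.3) and 57.1% (46.7 to 67.1), in no order of width. In the widest 10% it was 345 of 576 (59.9%, 55.8 to 63.9). This was above the 9th bin at 165 of 361 (45.7%, 40.5 to 51.0) and bins 1 to 8 pooled at 443 of 914 (48.5%, 45.2 to 51.8). The limits of the widest bin overlapped those of several single bins, such as the 5th at 57.1% (46.7 to 67.1). The in-POL2 intervals of the widest bin lay in domains of the same median width as the others (6600 bp in both). Their domains were touched at PD12 in 65.1% (61.1 to 69.0) of cases, against 57.9% (55.1 to 60.6) for the others. Shared FOXA2 intervals in adult POL2 showed 71.2% (60.0 to 80.8) in the widest 10% and 55.3% (38.3 to 71.4) in the 9th bin, from 80 and 38 intervals. The limits of in-POL2 and shared intervals overlapped in both bins.

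**Figure D2:**
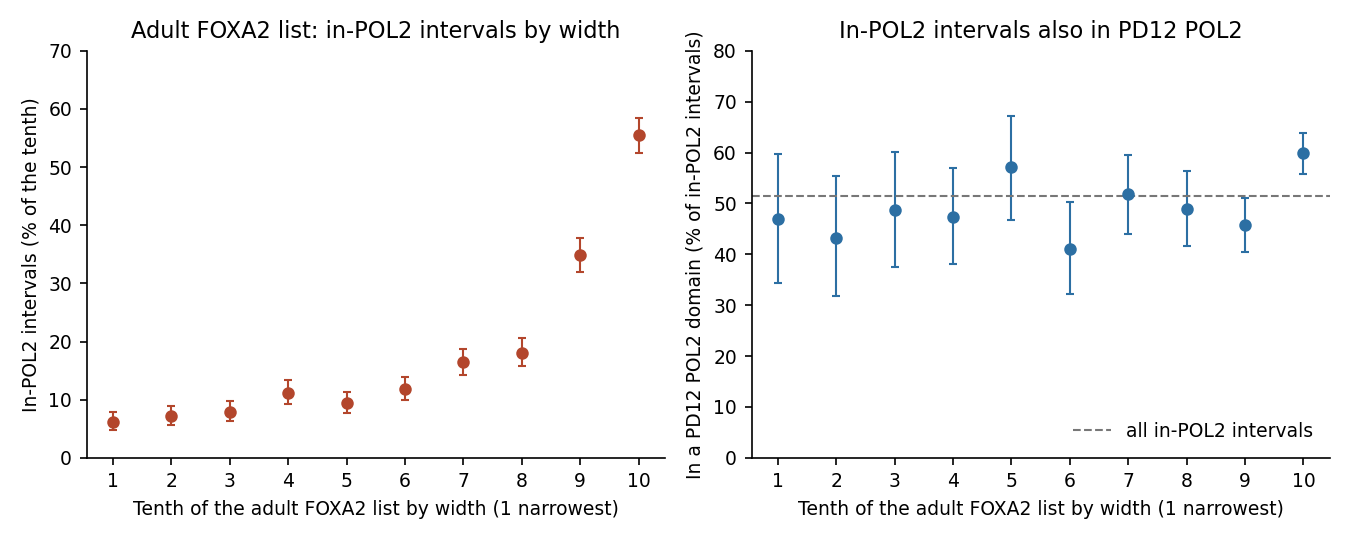
In-POL2 intervals as a percentage of each of 10 equal bins of the adult FOXA2 list by width (left), and the percentage of them that overlap a PD12 POL2 domain (right), with exact 95% binomial intervals. The left share reaches 55.5% in the widest bin, and the right share stays between 41.0% and 57.1% in the other 9 bins and is 59.9% in the widest.

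Of the 10 widest in-POL2 intervals, all but 1 lay in PD12 POL2. The share was 51.5% over all in-POL2 intervals and 59.9% over those of the widest bin. An interval this wide can meet a PD12 domain more easily, and the part of width in this share was not tested. The widest of all, 4249 bp on chromosome 17 (34255699 to 34259947), lay in an adult domain of 16.6 kb (34244400 to 34260999) that was covered at PD12 over its whole length, with a PD12 FOXA2 interval 12.2 kb away. That on chromosome 6 (38482480 to 38485335, 2856 bp) filled most of an adult domain of 3.80 kb (38481600 to 38485399). It was the exception, with the nearest PD12 domain 5280 bp away. The third, on chromosome 7 (16984305 to 16987066, 2762 bp), lay in a domain of 12.0 kb with full PD12 coverage.

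The next 7 measured from 2724 to 2388 bp. They lay on chromosome 16 (38087870 to 38090593), chromosome 11 (70481773 to 70484412), chromosome 16 (91646777 to 91649350), chromosome 8 (87184782 to 87187318), chromosome 7 (26539144 to 26541596), chromosome 19 (23208258 to 23210651) and chromosome 10 (79315771 to 79318158). PD12 POL2 covered 60.9% to 100% of their domains. Every one of the 10 was the single in-POL2 interval of its domain and lay wholly inside it. The nearest adult FOXA2 interval was between 4.29 and 127 kb away.

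At the limit of the choice, the in-POL2 intervals with the least overlap shared 8 bp with their domain (chromosome 5, 20544992 to 20545698), 27 bp (chromosome 4, 133841898 to 133842626) and 34 bp (chromosome 11, 57924366 to 57925078). Just outside it, adult-only intervals lay 16 bp (chromosome 1, 44636713 to 44637383, and chromosome 4, 144587844 to 144588383) and 25 bp (chromosome 2, 24263241 to 24263774) from an adult domain. On the outer side, few intervals stood close to the limit. Of the 7936 adult-only intervals outside adult POL2, 100 (1.26%, 1.03 to 1.53) were within 1 kb of a domain. The median distance of all 7936 was 71.9 kb. On the inner side, 286 in-POL2 intervals (15.5%, 13.8 to 17.2) crossed an end of their domain, and 1554 lay wholly inside.

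A wide domain meets a FOXA2 interval, or a PD12 domain, more easily by its length alone, so domains were compared at like width. Domains with in-POL2 intervals were wider (median 6200 bp, interquartile range 3400 to 10600) than the 12973 domains with no adult FOXA2 interval (4600 bp, 2800 to 7600). A PD12 domain touched 1009 of the 1707 domains with in-POL2 intervals (59.1%, 56.7 to 61.5) and 53.7% (52.8 to 54.5) of those without adult FOXA2. Within bins of domain width this order was not kept. In domains of over 2 and up to 5 kb it was the opposite, with 192 of 509 (37.7%, 33.5 to 42.1) against 44.6% (43.2 to 46.0). The limits overlapped in the other 4 bins, for example 68.2% (64.2 to 72.1) against 66.2% (64.7 to 67.6) at 5 to 10 kb, and 83.2% (78.7 to 87.1) against 84.8% (82.9 to 86.5) at 10 to 20 kb.

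Per base, in-POL2 intervals were densest in narrow domains. Their centres numbered 55.6 per Mb (47.7 to 64.5) in domains of up to 2 kb, 26.4 (24.2 to 28.8) in those of up to 5 kb, 17.4 (16.0 to 18.9) up to 10 kb, 14.1 (12.7 to 15.6) up to 20 kb and 13.5 (11.6 to 15.6) above. The share of domains with an in-POL2 interval went the other way, as length alone makes it do, from 7.87% (6.79 to 9.05) of the narrowest to 31.4% (27.2 to 35.8) of the widest. Adult domains with no PD12 POL2 held 25.2 centres per Mb (23.4 to 27.1) and those touched at PD12 16.4 (15.4 to 17.4). The limits were also separated at 2 to 5 kb, with 30.4 (27.2 to 33.9) against 21.8 (18.8 to 25.0). At 5 to 10 kb the densities were 17.3 (14.9 to 20.0) and 17.4 (15.7 to 19.2), and in wider domains the limits overlapped too, as they did in domains of up to 2 kb.

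**Figure D3:**
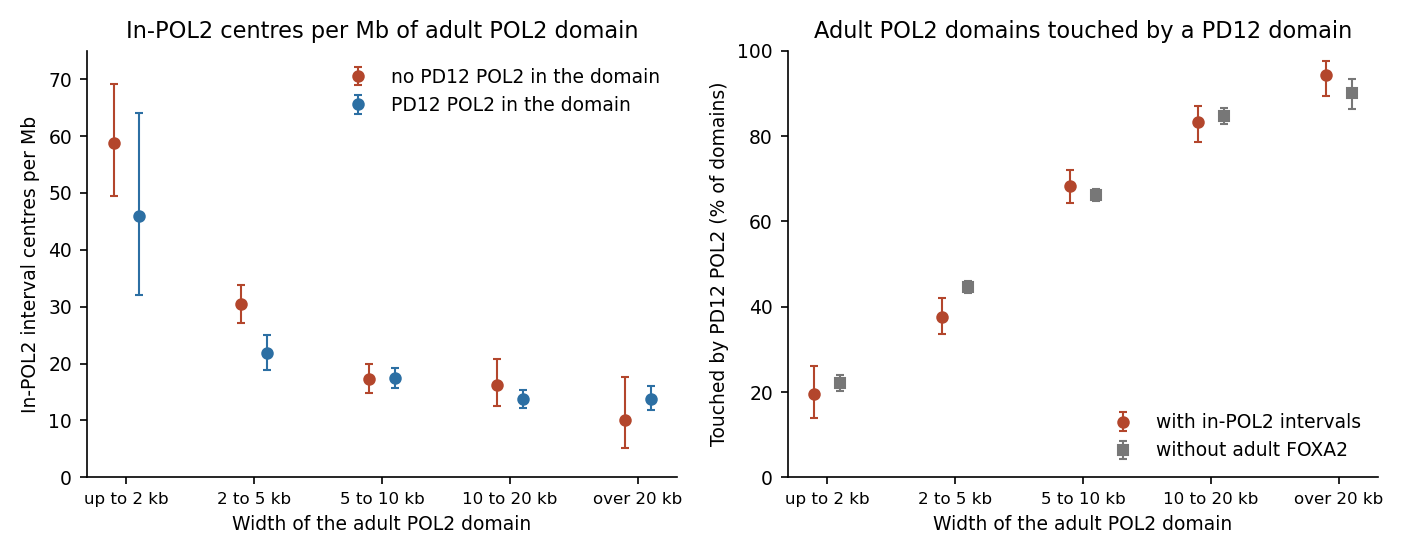
Centres of in-POL2 intervals per Mb of adult POL2 domain, in domains with and without PD12 POL2 (left, exact 95% Poisson intervals), and the percentage of adult domains touched by a PD12 domain, with in-POL2 intervals and without any adult FOXA2 (right, exact 95% binomial intervals), by domain width. Density is highest in domains of up to 2 kb, and both pairs of series are separated beyond their limits only at 2 to 5 kb.

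In 154 cases (8.32%, 7.10 to 9.67) the FOXA2 interval and the POL2 domain covered at least 50% of each other, and 179 in-POL2 intervals (9.67%, 8.36 to 11.1) lay in domains of up to 2 kb. In the 154 cases POL2 had about the size of the FOXA2 interval. Of all 14818 adult domains, 2275 were of up to 2 kb, and 7.87% (6.79 to 9.05) of these held an in-POL2 interval. Signal common to both antibodies at these places was not tested, since no control track was used here.

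Over all domains together, centres of in-POL2 intervals were fewer than even placement gives in the last 500 bp at a domain end. They were not fewer within 2 kb, and both results depended on domain width. The whole interval was inside the domain in 1554 cases (84.0%, 82.2 to 85.6), it crossed an end in 286 (15.5%, 13.8 to 17.2), and in 11 it contained the domain. Of the 1812 centres inside, 280 (15.5%, 13.8 to 17.2) were within 500 bp of an end, whereas such bases made up 21.9% of the same domains on average. Within 1 kb of an end there were 669 centres (36.9%, 34.7 to 39.2) against 39.4% of bases. Within 2 kb the order turned, with 65.8% (63.6 to 68.0) of centres against 62.6% of bases. By domain width, the limits at 500 bp lay below the share of bases only in domains of up to 10 kb. At 10 to 20 kb the share was 6.52% (4.22 to 9.55) against 7.61%, and above 20 kb 3.24% (1.20 to 6.93) against 3.52%. Within 2 kb the limits lay above the share of bases only in domains over 10 kb. These shares were 36.7% (31.7 to 41.8) against 30.4% at 10 to 20 kb, and 21.1% (15.4 to 27.7) against 14.1% above. For the widest 10% of FOXA2 intervals the share within 500 bp was 7.67% (5.62 to 10.2) against 19.9% of bases.

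In domains of 5 kb or more, centres were most frequent neither at the end nor in the middle. When the way from the nearer end to the middle was divided in 5 equal steps, where even placement gives 20% each, the step next to the end held 20.1% (17.8 to 22.6) of 1148 centres. The following step held 24.7% (22.2 to 27.3), the third 22.1% (19.8 to 24.6), the fourth 16.8% (14.7 to 19.1) and the middle 16.3% (14.2 to 18.6). Which end of a domain lies at a promoter is not known without an annotation.

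**Figure D4:**
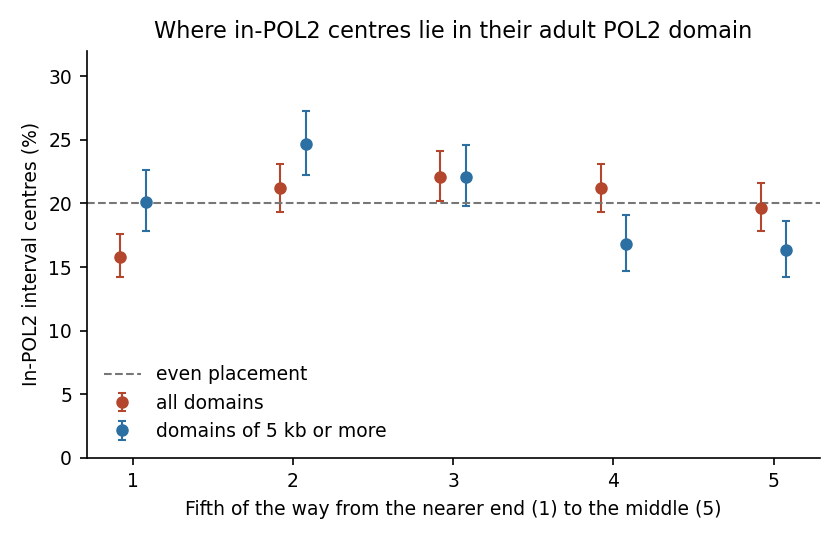
Percentage of in-POL2 interval centres in each of 5 equal steps from the nearer end of the adult POL2 domain (1) to its middle (5), with exact 95% binomial intervals, for all domains and for those of 5 kb or more, and even placement as a dashed line at 20%. In all domains the step next to the end is lowest at 15.8%, and in domains of 5 kb or more the second step is highest at 24.7%.

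Another adult FOXA2 interval lay within 10 kb of 458 in-POL2 intervals (24.7%, 22.8 to 26.8), compared with 22.4% of all adult FOXA2 intervals. The share was 21.8% (20.9 to 22.7) for adult-only intervals outside adult POL2 and 24.2% (17.8 to 31.6) for shared intervals in adult POL2. The limits of the first and the second of these groups are separated by 22.7 to 22.8 only. They overlap when in-POL2 intervals with a PD12 FOXA2 interval within 10 kb are left out (23.5%, 21.6 to 25.5). The 123 such intervals of the outside group were kept, so this comparison is not of like with like. Within 1 kb the shares of in-POL2 and outside intervals were 6.10% (5.06 to 7.29) and 4.06% (3.63 to 4.52), and 22 in-POL2 intervals had a neighbour at most 100 bp away. Within 50 kb the shares of these groups were 61.4% (59.1 to 63.6) and 57.3% (56.2 to 58.4), with a median distance to the nearest neighbour of 33.5 and 37.9 kb. Among the 458 with a neighbour within 10 kb, at least 1 such neighbour was itself an in-POL2 interval in 305 (66.6%, 62.1 to 70.9). In 127 (27.7%, 23.7 to 32.1) every such neighbour was an adult-only interval outside POL2. In-POL2 intervals are 17.8% of the adult list, but the kind of a neighbour comes from the lists that made the choice. These shares were not taken for other FOXA2 intervals and are not read as clustering particular to in-POL2 intervals.

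With adult FOXA2 intervals at most 10 kb apart taken as a run, in-POL2 intervals fell in 1687 runs. Of these, 1393 were single intervals, 232 held 2 and 62 held 3 or more adult FOXA2 intervals, and the longest held 6. Runs were not counted for the other adult FOXA2 intervals, so these counts are not read as particular to in-POL2 intervals. In-POL2 intervals with PD12 POL2 had a neighbour within 10 kb in 27.2% (24.4 to 30.1) of cases, and those in domains without PD12 POL2 in 22.3% (19.3 to 25.4).

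The PD12 FOXA2 list holds 814 intervals over the genome, and overlap with it was barred by the choice. The median distance from an in-POL2 interval to a PD12 FOXA2 interval was 673 kb, against 772 kb for adult-only intervals outside adult POL2, which are barred from overlap in the same way. Of the in-POL2 intervals, 43 (2.32%, 1.69 to 3.12) had a PD12 FOXA2 interval within 10 kb, against 1.55% (1.29 to 1.85) of those outside, and the limits overlapped. Within 100 kb there were 228 (12.3%, 10.9 to 13.9). Of the 1707 domains with in-POL2 intervals, 32 (1.87%, 1.29 to 2.64) also held a PD12 FOXA2 interval, and 22 held an adult FOXA2 interval shared with PD12. Of all adult domains, 1.62% (1.42 to 1.84) held a PD12 FOXA2 interval, and the limits overlapped. All adult domains include the 160 with a shared FOXA2 interval. Of domains with no adult FOXA2, 0.547% (0.428 to 0.690) held a PD12 FOXA2 interval, and here the limits were separated. Such domains hold no shared interval by definition and were narrower, and the difference was not tested.

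In-POL2 intervals were found on all 20 chromosomes of the lists, from 15 on X to 151 on chromosome 11. Per Mb of adult POL2 they ranged from 12.5 (7.01 to 20.6) on X to 24.9 (20.2 to 30.4) on chromosome 17. PD12 POL2 at these intervals ranged from 33.3% (11.8 to 61.6) on X to 70.2% on chromosome 7. It was present at 99 of 141 (70.2%, 61.9 to 77.6) on chromosome 7, where PD12 POL2 covered 61.0% of adult POL2 bases. It was present at 54 of 137 (39.4%, 31.2 to 48.1) on chromosome 5, where it covered 51.0%. On chromosome 6 the share was 57.1% (46.7 to 67.1) with 45.2% of bases covered. On these 3 chromosomes, on chromosome 4, with 42.5% (32.9 to 52.4) against 53.3%, and narrowly on chromosome 10, with 46.4% (37.0 to 56.1) against 56.2%, the limits did not include the share of bases. They did so on the other 15. No test was made over the 20 chromosomes compared.

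**Figure D5:**
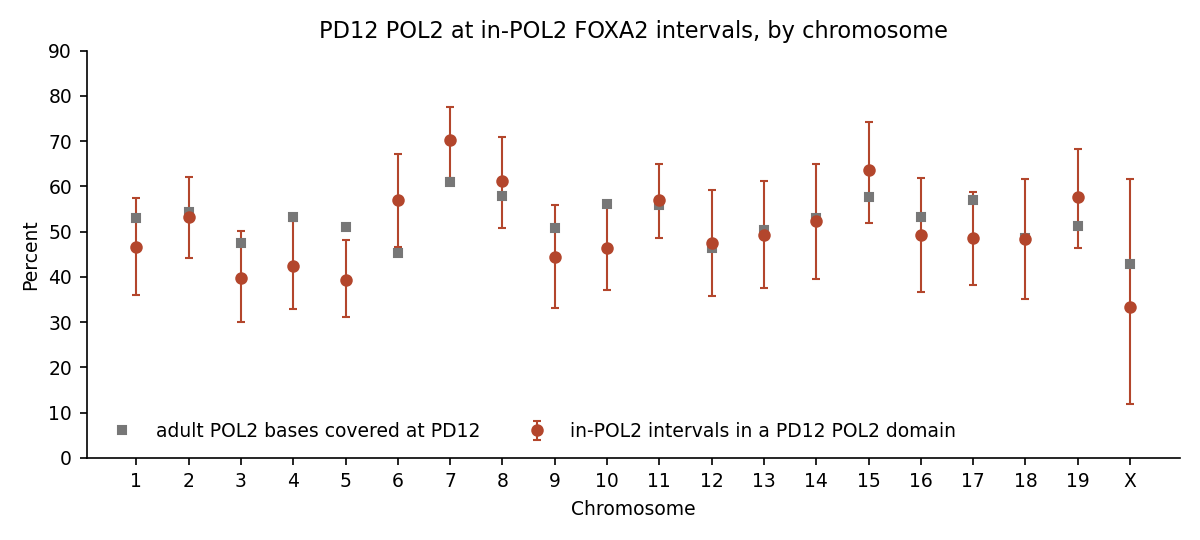
Percentage of in-POL2 intervals that overlap a PD12 POL2 domain on each chromosome (circles, exact 95% binomial intervals) and percentage of adult POL2 bases covered at PD12 (squares). Chromosome 7 is highest at 70.2%, and its limits lie above its square at 61.0%.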

How the data were processed

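Each of the 4 groups of stage and antibody had 1 deposited peak list. Per the labels' protocols, formaldehyde-fixed, sonicated chromatin was precipitated with an antibody to FOXA2 or to POL2, and input DNA was prepared. The submitters' processing notes name BWA as aligner. Caller, threshold, role of the input, pooling of animals and genome build were not given in the sources used here. The authors' lists hold, per the file headers, chromosome, start and end of intervals, with no score, p-value, fold or count, so no depth could be given. Starts of POL2 intervals were all multiples of 200 bp, unlike those of FOXA2.

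Positions are printed as in the files and were counted as inclusive. In the 4 lists, 260 intervals, among them 14 in-POL2 intervals, ended beyond the last gene of their chromosome in the GRCm38 gene table at hand. That table was therefore not used for positions, and the planned motif and gene analyses were not run. Overlap, distance and coverage were computed with Python 3.11.15, numpy 2.4.6 and pandas 2.3.3, exact intervals with scipy 1.17.1, and figures with matplotlib 3.10.9. The interval functions were tested on simulated lists against direct counts.

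The regions and measures were chosen with earlier results of these data known. Named regions are the 10 widest in-POL2 intervals, the 5 adult POL2 domains with the most of them (the wider first among equals), the 5 widest such domains with no PD12 POL2, and the 3 intervals nearest to the limit of the choice on either side. The domain on chromosome 9 belongs to both sets of 5. Bins of width, densities by PD12 coverage, chromosomes, distances to PD12 lists and runs were added after the lists were read. Alternatives changed the overlap rules, the distances, the joining of domains and the widths used.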

Additional observations from a re-analysis of the deposited data

How the results depend on the processing

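For 7 results and 49 alternatives, all fixed with earlier results known, 29 alternative values fell inside the 95% limits of the value in the text and 20 fell outside. For coverage those limits treat each domain as 1 count. With the whole FOXA2 interval inside the domain, 1554 in-POL2 intervals remained, 54.8% of them in PD12 POL2, 26.4% with centres within 1 kb of an end and 16.3 per Mb. With POL2 joined across gaps of up to 5 kb, 30.7% of centres were within 1 kb of an end, at 18.1 intervals per Mb. In the 50% narrowest FOXA2 intervals, 49.1% lay in PD12 POL2, 56.4% of domain bases were covered at PD12 (58.8% reported) and density was 4.56 per Mb, and in the 50% widest it was 14.9; these densities count fewer intervals by construction. In adult domains of 5 kb or more the PD12 POL2 share was 63.4%, coverage 63.0%, centres within 1 kb of an end 20.3%, neighbours within 10 kb 27.6% and density 15.8 per Mb. A PD12 domain within 5 kb gave 62.5%, end distances of 500 bp and 2 kb gave 15.5% and 65.8%, and neighbours within 5 and 50 kb 16.4% and 61.4%. Apart from what the counting itself fixes, the cause of these moves was not tested.

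No paired analysis was possible because every stage and antibody is represented by a single library. Other settings for the motif and for gene location were not run. Unknown depth limits what absence from the PD12 lists can show.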
